A study of Homo sapiens with 6 samples.

Results

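The 10 genes described here are ATF4, the central transcription factor of the integrated stress response, and 9 genes that it is known to act through or to switch on: ATF3, DDIT3, TRIB3, CHAC1, SESN2, ASNS, PSAT1, PHGDH and MTHFD2. They were chosen by name, and every probe whose gene name in the array files equalled one of these names was taken. That gave 15 probes for 10 genes, of 50586 probes with 36328 gene names for cell RNA on the array. ATF3 had 4 probes, CHAC1 and PSAT1 had 2 each, and the other 7 genes had 1 each.

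RNA came from MOLT-4, an established human line derived from a T-cell acute lymphoblastic leukaemia. One group of 3 arrays held RNA from mock-transfected cells, and the other group of 3 held RNA from cells overexpressing NUDT16, an enzyme that removes the cap from the 5′ end of RNA. Total RNA was immunoprecipitated for m3G or m7G caps (trimethylguanosine or 7-methylguanosine), and the eluate was reverse transcribed, labelled with Cy3 and hybridised to 1-colour Agilent arrays. All 6 arrays therefore measured captured RNA. Total RNA from before the capture was not analysed here, so the amount of an RNA in the cell and the share of it that was captured cannot be told apart. In bulk samples of this kind, fewer cells that make an RNA and less of it per cell cannot be told apart either. The labels do not say how the cells were transfected, for how long, or whether the 3 samples of a group came from separate cultures, so the p-values measure only the spread between these samples.

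The integrated stress response starts with kinases that sense amino acid shortage, unfolded protein, viral RNA or haem deficiency and phosphorylate the translation factor eIF2. General translation then falls, while translation of ATF4 rises through short upstream reading frames in its messenger RNA. ATF4 pairs with other bZIP proteins at composite C/EBP-ATF response elements and switches on genes for amino acid synthesis and import, for redox balance, and, when stress lasts, for cell death. Because ATF4 is controlled largely at translation, the level of its messenger RNA and the activity of the protein need not move together. Leukaemic lymphoblasts are known for their need of asparagine, the product of ASNS, and are treated with an enzyme that breaks it down.

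Sequences are shown for 2 reasons, base composition of the probes and the response element of the promoters. Each probe is a 60-base DNA, and the probes of these genes ranged from 35% to 55% G and C. The following probes lie at the ends of that range, with G and C in capitals, read 5′ to 3′ from the array files. The probes for ATF4, MTHFD2, PSAT1 and SESN2 are given by their first 30 bases.
CHAC1 A_33_P3376965: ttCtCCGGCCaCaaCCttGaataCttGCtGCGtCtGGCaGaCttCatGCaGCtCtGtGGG
ATF3 A_33_P3214105: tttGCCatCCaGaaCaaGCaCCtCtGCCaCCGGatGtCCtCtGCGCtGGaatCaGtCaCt
ATF4: CaaGGCaaGGGGGaaGaaaaGGGtCCCCta
SESN2: CCtGCCGCaGatGtCtCCCaaaaaGttGaG
ATF3 A_24_P33895: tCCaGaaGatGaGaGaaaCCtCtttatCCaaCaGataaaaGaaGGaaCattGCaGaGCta
PSAT1 A_21_P0010626: CaGGatataCtCtGttCttGaaCaaCataC
MTHFD2: aGGattattCCttGCtattaGtaCtCattt
CHAC1 A_33_P3376965 and ATF3 A_33_P3214105 hold 55% G and C, ATF4 and SESN2 53.3%, ATF3 A_24_P33895 38.3%, and PSAT1 and MTHFD2 35%.

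The promoters were searched for 2 motifs on both strands, in RefSeq sequence of the build GRCh38.p14 from 250 bases before to 50 bases after each annotated start. The first was TGATGNAA, a form of the C/EBP-ATF response element, and the second was TGACGTCA, the cyclic AMP response element that bZIP proteins such as ATF3 also bind. All 10 genes were found, with 16 promoters among them. TGATGNAA was present in 3 of the 16 promoters and 3 of the 10 genes, against 3.62% of 35116 promoters and 4.46% of 27305 genes. TGACGTCA was in 0 of the 16, against 1.85% of all promoters. No single stretch can match both motifs, and a match describes letters and not binding. The following 60-base windows hold the 3 matches, with the motif in capitals, written on the strand of the gene.
ATF3: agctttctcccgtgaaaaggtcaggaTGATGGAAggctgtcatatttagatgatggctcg
ASNS: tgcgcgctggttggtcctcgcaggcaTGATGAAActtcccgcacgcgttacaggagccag
CHAC1: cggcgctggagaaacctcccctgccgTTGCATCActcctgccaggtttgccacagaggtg
The ATF3 window is chr1:212565190-212565249 on the plus strand, with the motif from 191 to 184 bases before the start. The ASNS window is chr7:97872443-97872502 on the minus strand, with the motif from 68 to 61 bases before the start. The CHAC1 window is chr15:40953236-40953295 on the plus strand, where the motif reads on the opposite strand from 209 to 202 bases before the start.

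The arrays differed in what they detected. On the mock arrays 49.6%, 39.3% and 51.1% of spots were well above background for replicates 1, 2 and 3, and on the NUDT16 arrays 42.3%, 14.6% and 52.0%. NUDT16 replicate 2 was thus the dimmest array, and values on it lie nearer to background than elsewhere. Signals were set relative to the 75th percentile of the probes detected on all 6 arrays, which stood at an intensity of 224 on NUDT16 replicate 2 and between 2701 and 7717 on the others. No spot for cell RNA was saturated. Neither probe named NUDT16 was well above background on any array, so the overexpression that the labels state was not seen through that name. A probe named for its pseudogene NUDT16P1 was detected on each of the 3 NUDT16 arrays and on 0 of 3 mock arrays, and with an adjusted p of 0.00155 (limma) it was the only probe called over the whole array. Of 17 T-lineage markers 16 were detected on 3 or more arrays and 11 on all 6. Their summed level lay between 4.18 and 4.30 (log2) on the mock arrays and between 4.26 and 4.67 on the NUDT16 arrays. On 3 or more arrays 3 of 5 B-lineage, 1 of 4 myeloid, 1 of 3 erythroid and 2 of 4 epithelial markers were also detected. Fibroblast markers were detected on no array (0 of 4), and EPCAM, CDH1, HBB, CSF1R, ITGAM, MPO, MS4A1 and PAX5 were also detected on none. Same-numbered arrays shared a slide, and, once each group's mean was subtracted, they correlated at 0.84, 0.39 and 0.77 over the 17765 tested probes. The number of arrays limits the precision of all values.

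None of the 10 genes was called as different between NUDT16 and mock cells after adjustment for multiple tests. Of the 15 probes, 14 were detected on all arrays of a group and entered the test. After limma with p-values adjusted by the Benjamini-Hochberg method over 17765 probes, 0 of the 14 were called, where 0.00563% of all tested probes were. At an unadjusted p under 0.05 the count was also 0 of 14, and it was 8 over the whole array. The lowest adjusted p among the 14 was 0.999. With the replicate number as a block, 0 of 14 were called against 0.00563% of all probes, with adjusted p values from 0.467 to 0.976. Groups without overlap, where every NUDT16 array lies on one side of every mock array, occurred for 0 of the 14 and for 0.591% of all tested probes. The standard errors of the differences ran from 0.59 to 0.76 without the block and from 0.30 to 0.48 with it, on the log2 scale. A difference has to exceed its SE several times to be called. Without the block, 95% intervals ran from -1.14 to 1.43 for ATF4, with the lowest SE, and from -2.58 to 0.72 for MTHFD2, with the highest. Changes of 2-fold or more could thus be missed with 3 arrays a group in the fit without the block. With the block the intervals were narrower, from -0.60 to 0.90 for ATF4 and from -2.07 to 0.21 for MTHFD2.

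**Figure D1:**
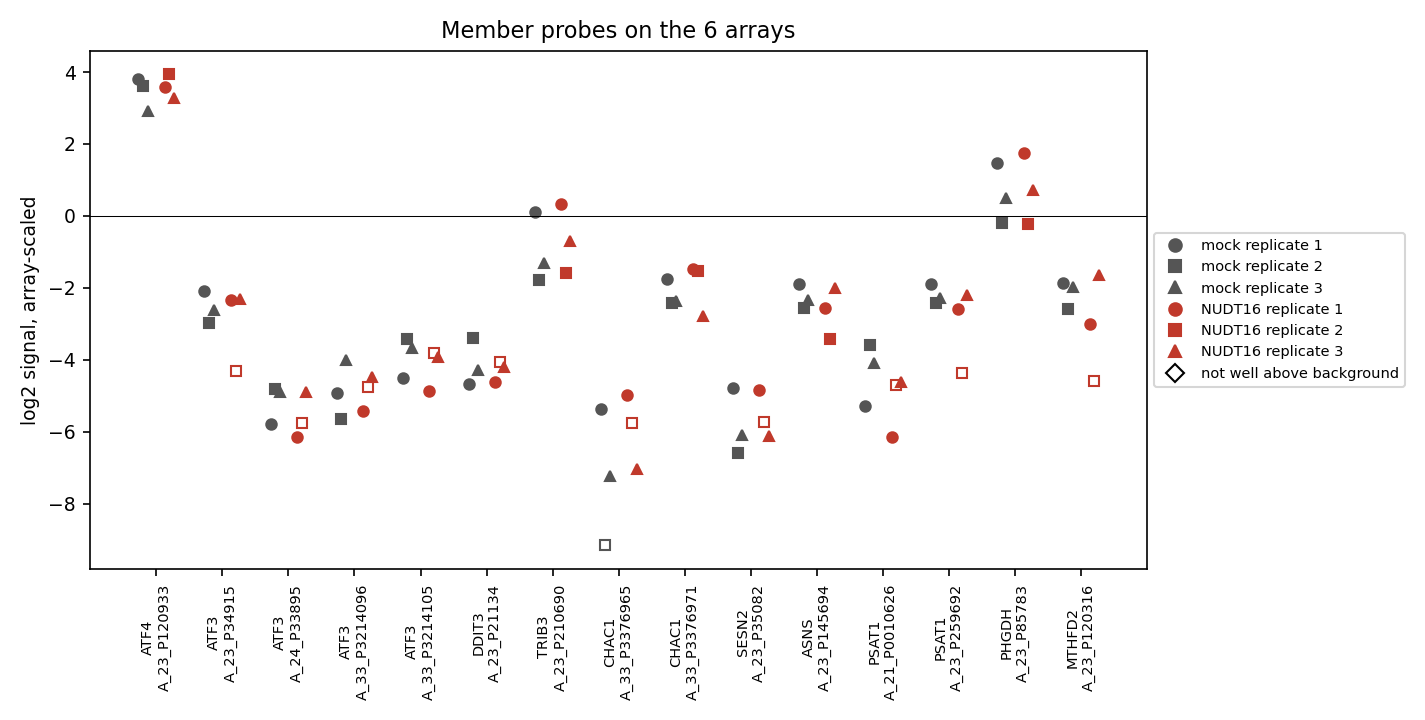
Signal of each of the 15 probes on the 6 arrays, as log2 after scaling by the percentile described above (vertical axis), with mock arrays in grey, NUDT16 arrays in red, the replicate number by marker shape and open markers for values not well above background. Mock and NUDT16 arrays overlap for each of the 14 tested probes, and NUDT16 replicate 2 is not well above background for 10 of the 15.

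ATF4 itself was the first of the transcription factors. Its probe (A_23_P120933, chr22:39918577-39918636 on hg19) read 3.81, 3.62 and 2.93 on mock replicates 1, 2 and 3, and 3.59, 3.94 and 3.27 on NUDT16 replicates 1, 2 and 3, in log2 units relative to the percentile. The probe was well above background on all 6 arrays, and both replicate 3 arrays were the lowest. The means were 3.45 ± 0.46 (SD, n = 3) for mock and 3.60 ± 0.33 (SD, n = 3) for NUDT16. The difference of 0.15 ± 0.59 (SE) had a 95% interval from -1.14 to 1.43 and an adjusted p of 0.999 (limma). With the block that interval was -0.60 to 0.90. Within slides the NUDT16 array stood 0.22 below mock for number 1 (a difference of -0.22) and 0.32 and 0.34 above it for numbers 2 and 3.

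ATF3, a bZIP factor that ATF4 induces and that represses or activates stress genes, had 4 probes on chromosome 1. The one nearest the 3′ end (A_23_P34915, chr1:212793856-212793915) read -2.08, -2.98 and -2.62 in mock and -2.33, -4.32 and -2.30 in NUDT16 cells. NUDT16 replicate 2, the low value, was not well above background, and the other 2 NUDT16 arrays lay inside the mock range. The difference was -0.43 ± 0.70 (SE), and it was 0.03 over replicates 1 and 3 alone, with the block. The other 3 probes lay upstream, at chr1:212792837-212792896, chr1:212792519-212792578 and chr1:212788502-212788561, and differed by -0.43, -0.03 and -0.33 with SEs of 0.62, 0.64 and 0.62. The last of these (A_33_P3214105) was lower in NUDT16 cells in each of the 3 same-numbered pairs, by -0.35, -0.38 and -0.25. On NUDT16 replicate 2 none of the 3 upstream probes was well above background, so their pair 2 differences rest on background values.

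DDIT3 encodes CHOP, the bZIP factor linked to cell death under lasting stress. Its probe (A_23_P21134, listed over chr12:57911200-57911526, a span of 327 bases that is longer than the probe) read -4.68, -3.41 and -4.29 in mock and -4.61, -4.06 and -4.20 in NUDT16 cells. The NUDT16 values all fell inside the mock range, and that of replicate 2 was not well above background. The difference was -0.17 ± 0.61 (SE), with a 95% interval of -0.95 to 0.61 under the block.

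TRIB3 is a pseudokinase that ATF4 and CHOP induce and that damps them in turn. Its probe (A_23_P210690, chr20:378107-378166) read 0.11, -1.77 and -1.32 in mock and 0.34, -1.59 and -0.70 in NUDT16 cells, and it was well above background on all 6 arrays. Replicate 1 was high in both groups. The difference was 0.35 ± 0.72 (SE), from -0.99 ± 0.98 (SD, n = 3) to -0.65 ± 0.97 (SD, n = 3). Within pairs the NUDT16 array was higher by 0.23, 0.19 and 0.62, which made TRIB3 the 1 probe of 14 that was higher in all 3 pairs, as were 15.9% of all tested probes. With the block its adjusted p was 0.601 (limma). Without scaling between arrays the difference was -0.65, where all probes are lower by the same 0.996 and their median is -1.10.

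CHAC1 degrades glutathione and is a late target of the ATF4 and CHOP arm. Its downstream probe (A_33_P3376971, chr15:41248631-41248690) read -1.75, -2.43 and -2.37 in mock and -1.47, -1.54 and -2.77 in NUDT16 cells. NUDT16 replicates 1 and 2 lay above every mock array and NUDT16 replicate 3 below every mock array. The difference was 0.26 ± 0.62 (SE), with pair differences of 0.29, 0.89 and -0.40. The upstream probe (A_33_P3376965, chr15:41247814-41247873) was not well above background on either replicate 2 array and was not tested. Its values on the other arrays were -5.36 and -7.23 for mock replicates 1 and 3 and -4.99 and -7.05 for NUDT16 replicates 1 and 3.

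SESN2 encodes sestrin 2, a leucine sensor that restrains the growth kinase complex mTORC1. Its probe (A_23_P35082, chr1:28608194-28608253) read -4.78, -6.60 and -6.10 in mock and -4.83, -5.73 and -6.12 in NUDT16 cells. Replicates 1 and 3 were close between the groups, with pair differences of -0.05 and -0.02. The difference of 0.26 ± 0.68 (SE) therefore rested on pair 2, at 0.86, where the NUDT16 value was not well above background, and it was -0.04 over replicates 1 and 3 alone.

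The enzymes of amino acid synthesis came next, beginning with ASNS, asparagine synthetase. Its probe (A_23_P145694, chr7:97481461-97481520) read -1.88, -2.56 and -2.33 in mock and -2.57, -3.43 and -2.004 in NUDT16 cells, flagged as well above background throughout. The value on NUDT16 replicate 2 lay near the lowest detected on that array, which was -3.52. Within pairs, numbers 1 and 2 were lower in NUDT16 cells by -0.69 and -0.87 and number 3 was higher by 0.33. The difference was -0.41 ± 0.62 (SE), from -2.26 ± 0.35 to -2.67 ± 0.72 (SD, n = 3 each), and it was -0.03 without NUDT16 replicate 2. Its 95% interval was -1.27 to 0.45 with the block.

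PHGDH and PSAT1 catalyse the first and the second step of serine synthesis from a glycolytic intermediate. The PHGDH probe read 1.47, -0.20 and 0.50 in mock and 1.74, -0.21 and 0.73 in NUDT16 cells. Arrays of the same number were closer to each other than to their own group, with pair differences of 0.26, -0.01 and 0.23. The difference was 0.16 ± 0.71 (SE) without the block and had an SE of 0.30 with it.

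PSAT1 had 2 probes on chromosome 9, and both had differences below 0. The probe nearer the 3′ end (A_23_P259692, chr9:80944778-80944837) read -1.90, -2.43 and -2.28 in mock and -2.60, -4.36 and -2.19 in NUDT16 cells, of which the value of NUDT16 replicate 2 was not well above background. The probe 763 bases upstream (A_21_P0010626, chr9:80944015-80944074) read -5.29, -3.58 and -4.08 in mock and -6.15, -4.71 and -4.62 in NUDT16 cells, again with replicate 2 not well above background. Pair differences of the downstream probe were -0.70, -1.93 and 0.09, and those of the upstream probe were -0.87, -1.13 and -0.54. Lower in all 3 pairs were 2 of the 14 probes (this one and ATF3 A_33_P3214105), as were 27.5% of all tested probes. The difference was -0.85 ± 0.69 (SE) for the upstream and -0.84 ± 0.68 (SE) for the downstream PSAT1 probe. The downstream value became -0.30 over replicates 1 and 3 with the block, and -0.19 without NUDT16 replicate 2.

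With the block, the upstream PSAT1 probe had an unadjusted p of 0.0318 and an adjusted p of 0.467 (limma), with a 95% interval of -1.59 to -0.10. It was the 1 of 14 probes with an unadjusted p under 0.05 in that fit, where 9.76% of all tested probes had one. Over replicates 1 and 3 alone, with the block, its difference was -0.70 and its adjusted p 0.180, the lowest of the 14. In that fit 0 of the 14 were called, against 3.45% of all tested probes (613 of 17765). The SE in that fit was the same 0.30 for each of the 14 probes. Its p-values therefore follow the size of the difference and not the spread of the single probe.

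MTHFD2, a mitochondrial enzyme of one-carbon metabolism that is active in dividing and leukaemic cells, had the difference furthest from 0. Its probe (A_23_P120316, chr2:74441985-74442044) read -1.86, -2.58 and -1.98 in mock and -2.99, -4.58 and -1.64 in NUDT16 cells. NUDT16 replicate 3 was the highest of all 6 arrays and NUDT16 replicate 2 the lowest, so the groups overlapped, and the SD was 0.38 in mock and 1.47 in NUDT16 cells (n = 3 each). The difference was -0.93 ± 0.76 (SE), with a 95% interval of -2.58 to 0.72. It was -0.18 without NUDT16 replicate 2, and -0.39 over replicates 1 and 3 alone, with an adjusted p of 0.490 (limma with the block).

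The array carries 10 spots for MTHFD2, which shows how well a single array fixes the value. On 5 of the arrays the log2 signals of the 10 spots had an SD between 0.03 and 0.09. On NUDT16 replicate 2 the SD was 0.41, 0 of the 10 spots were well above background and their intensities ran from 5.64 to 13.1. The spots of an array repeat the hybridisation and are not replicates of the condition.

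**Figure D2:**
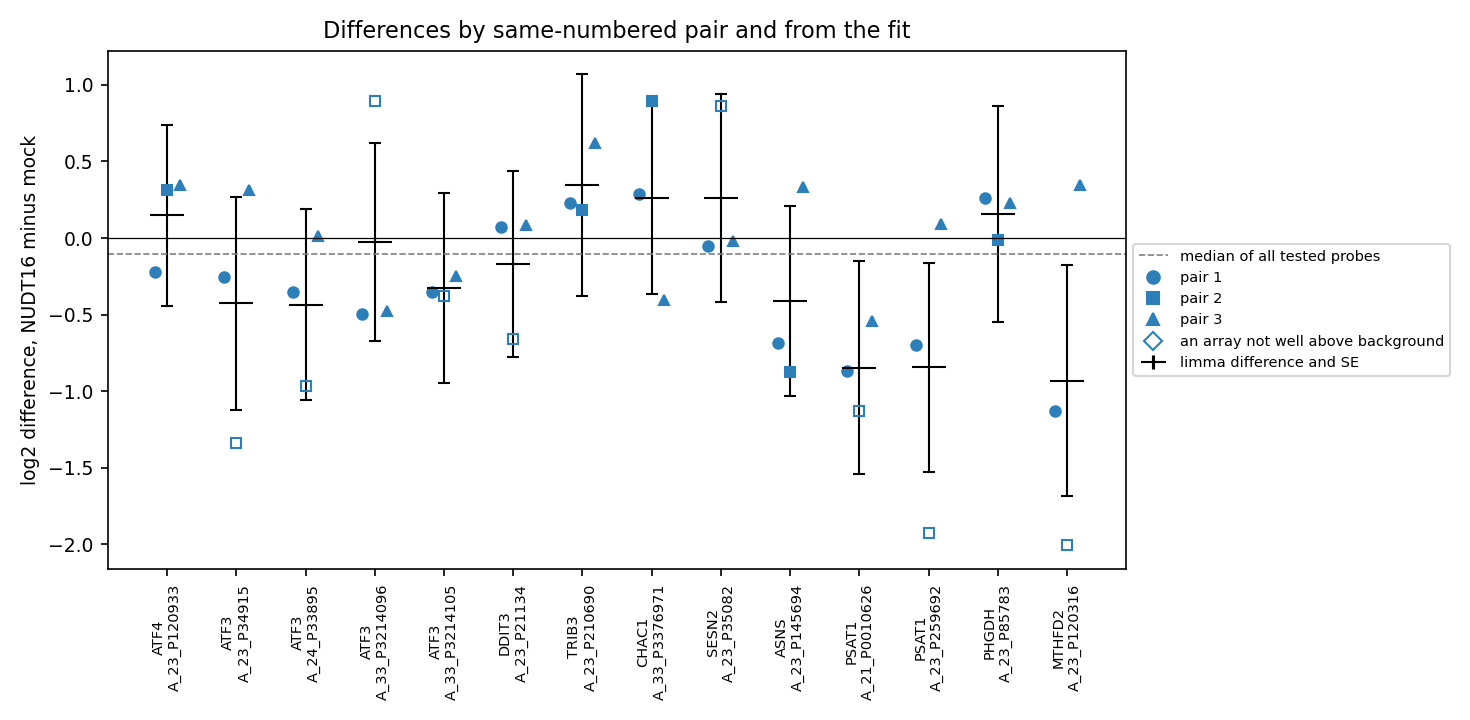
Difference of NUDT16 minus mock for each of the 14 tested probes (vertical axis, log2), with 1 point for each same-numbered pair, open where an array of the pair was not well above background, and the limma difference with its SE in black. All 3 pairs are above 0 for 1 probe, beside 15.9% of all tested probes, and below 0 for 2 probes, beside 27.5%. The dashed line marks the median of all tested probes at -0.11.

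Set beside the whole array, the genes stood on both sides of the common shift. The median difference over all tested probes was -0.11 (log2), and 43.2% of them were above 0. With the brightest probe for each gene, 5 of the 10 genes (ATF4, TRIB3, CHAC1, SESN2 and PHGDH) had values above 0 and 5 (ATF3, DDIT3, ASNS, PSAT1 and MTHFD2) below it, with a median of -0.01. The same split, 5 against 5, held around the median of all probes. With all 14 tested probes of these genes counted, the median was -0.25, below that of all tested probes. Without scaling between arrays every probe is lower by 0.996, and the 5 genes above 0 then lay below it, at -0.85 for ATF4, -0.65 for TRIB3, -0.74 for CHAC1, -0.73 for SESN2 and -0.84 for PHGDH, beside a median of all tested probes of -1.10.

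The difference between replicate numbers varied among these genes, and the number of them with replicate 1 at an end of the range was near the share on the whole array. Averaged over both groups, replicate 1 minus replicate 3 was 1.30 for SESN2, 1.23 for TRIB3, 0.99 for PHGDH, 0.96 for CHAC1 and 0.60 for ATF4, in log2 units. It was 0.26 for the brightest probe of ATF3, -0.01 for that of PSAT1, -0.05 for ASNS, -0.40 for DDIT3 and -0.62 for MTHFD2. The median over the 10 genes was 0.43 with the brightest probe of each. Over all tested probes, which count every probe of a gene, it was -0.52, with quartiles of -1.54 and 0.33. These medians are therefore not like for like. The dimmer probes stood at -1.06, -0.95 and -0.88 for ATF3 and at -1.37 for PSAT1. Both replicate 1 arrays lay above the other 4 arrays for 3 of the 14 probes (TRIB3, SESN2 and PHGDH) and for 17.8% of all tested probes. Both lay below the other 4 for 4 of the 14 (DDIT3, ATF3 A_24_P33895, ATF3 A_33_P3214105 and PSAT1 A_21_P0010626) and for 26.6% of all tested probes. Replicate numbers follow the slides, so slide and sample preparation cannot be told apart.

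Probes of the same gene gave different answers to that contrast. The 3′ ATF3 probe had a replicate 1 minus replicate 3 difference of 0.26, and the probe 5354 bases upstream on the chromosome had -0.88, a gap of 1.14. For PSAT1 the values were -0.01 downstream and -1.37 at the upstream probe, a gap of 1.36. Across 2440 genes with 2 or more tested probes on the array, the probe nearest the 3′ end minus the one furthest upstream had a median of 0.55, with quartiles of -0.07 and 1.33, and it was above 0 in 71.8%. In the NUDT16 minus mock difference the gap was -0.10 for ATF3, 0.0021 for PSAT1 and 0.12 at the median of those genes. The part of probe position in the values of the other members was not tested.

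Base composition of the probes moved with the difference between the groups. Over all 17765 tested probes the correlation of G and C content with the NUDT16 minus mock difference was 0.40 (Pearson's r, a description across probes that share the same 6 arrays and are not independent). By pair it was 0.30, 0.39 and 0.02 for numbers 1, 2 and 3. Probes of at most 45% G and C had a median difference of -0.28 (13063 probes), and richer ones had 0.33 (4702 probes). In pair 2, which holds the dim array, those medians were -0.26 and 0.88.

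The probes of these genes were spread along the same range. Of the 8 with at most 45% G and C, 1 (TRIB3, at 45%) had a difference above 0, and their median was -0.43. Of the 6 richer probes 4 had a difference above 0, and their median was 0.15. The 3 probes of 35% (both of PSAT1 and that of MTHFD2) had the 3 values furthest below 0. When the trend of signal on G and C content was removed from each array, an alternative added after the data were seen, the differences became -0.24 for ATF4, -0.13 for CHAC1, -0.13 for SESN2 and -0.28 for PHGDH. TRIB3 stayed above 0 at 0.39, while PSAT1 stood at -0.66 for both probes and MTHFD2 at -0.74. The lowest value was then that of ATF3 A_33_P3214105, a probe of 55%, which went from -0.33 to -0.76, and ATF3 A_33_P3214096 went from -0.03 to -0.31. In the same correction with the block, adjusted p values of the 14 probes ran from 0.479 to 0.888 (limma). ATF3 A_33_P3214105 was the 1 of 14 probes with an unadjusted p under 0.05, at 0.0486 (limma). Over the whole array 1737 of 17765 tested probes were under 0.05 in that fit. The value of this ATF3 probe on NUDT16 replicate 2 was not well above background. The part of base composition in the differences was otherwise not tested.

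**Figure D3:**
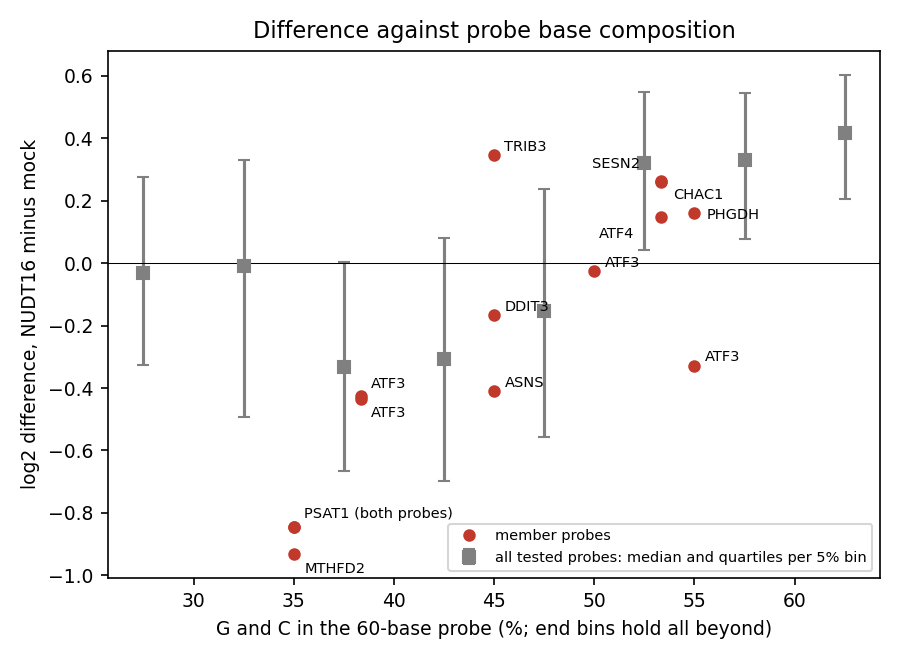
NUDT16 minus mock difference (vertical axis, log2) against the share of G and C in the 60-base probe (horizontal axis, percent) for the 14 tested probes in red, with the median and quartiles of all tested probes per bin of 5 percentage points in grey. PSAT1 and MTHFD2 lie lowest at 35%, below the quartiles of their bin, and ATF4, SESN2, CHAC1 and PHGDH lie above 0 between 53.3% and 55%.

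Other genes of the pathway, 85 in 6 lists by role, were examined in the same fit, and 71 of them were tested. None was called (0 of 71, limma adjusted over all probes, against 0.00563% of all tested probes), and 0 had an unadjusted p under 0.05. With the block 0 were called and 12 had an unadjusted p under 0.05, where 9.76% of all tested probes did. Among the eIF2 kinases, eIF2 with its exchange factor and its phosphatase subunits, 2 of 12 genes had a difference above 0, with a median of -0.49. They ran from EIF2S2, the beta subunit of eIF2, at -1.40 to EIF2B2, a subunit of its exchange factor, at 0.10. The bZIP partners and related factors had 3 of 9 above 0 and a median of -0.18, from ATF2 at -0.84 to BATF at 0.54.

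The downstream lists are given in the same way, and no difference between lists was tested. Amino acid and one-carbon genes had 6 of 13 above 0 and a median of -0.01, from GLUL, glutamine synthetase, at -0.93 to SHMT2, the mitochondrial serine hydroxymethyltransferase, at 0.41. Amino acid transporters had 6 of 9 above 0 and a median of 0.41, from SLC38A1 at -1.63 to the glutamine carrier SLC1A5 at 0.67. Stress effectors had 2 of 11 above 0 and a median of -0.37, from VLDLR at -1.05 to the secreted factor GDF15 at 0.48. The other arms of the unfolded protein response had 3 of 17 above 0 and a median of -0.48, from the chaperone CANX at -1.51 to SDF2L1 at 0.61. All of these are log2 differences, to be read beside the median of all tested probes of -0.11. They rest in part on the dim NUDT16 replicate 2. Over replicates 1 and 3 alone the medians were -0.36 for the eIF2 list, 0.18 for the bZIP list, 0.03 for amino acid and one-carbon genes, 0.18 for transporters, -0.36 for stress effectors and -0.12 for the other unfolded protein response arms, beside -0.22 for all tested probes. Of the genes named from the lists, GDF15, SLC38A1, EIF2S2, ATF2, VLDLR and SLC1A5 were not well above background on NUDT16 replicate 2. Their differences over all arrays therefore rest in part on background values. Over replicates 1 and 3 alone GDF15 turned to -0.36. The other genes named from the lists kept their sign, with SLC38A1 at -0.63, EIF2S2 at -0.64 and SLC1A5 at 0.35.

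Over replicates 1 and 3 alone, with the block, 2 of the 71 genes were called, against 3.45% of all tested probes. They were CANX at -1.003 (limma adjusted p 0.0328) and SEL1L, a part of the machinery that removes misfolded protein, at -0.95 (adjusted p 0.0476). Both names were taken because the count was small and after their values were seen. That fit gave the member probes a single shared SE, so its calls reflect the size of a difference and not the spread of the single gene. Both replicate 1 arrays lay above the other 4 for 19 of the 71 genes, beside 17.8% of all tested probes. They included 5 amino acid and one-carbon genes (SHMT1, GPT2, CBS, PYCR1 and SHMT2) and 5 transporters (SLC3A2, SLC7A5, SLC1A4, SLC6A9 and SLC1A5). The rest were 3 bZIP factors, 3 genes of the other unfolded protein response arms, 2 of the eIF2 list and 1 stress effector. Both lay below the other 4 for 4 genes of the other unfolded protein response arms, 2 stress effectors and 1 bZIP factor. Among all tested probes that share was 26.6%. The genes were counted by their brightest probe and the shares over every probe.

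**Figure D4:**
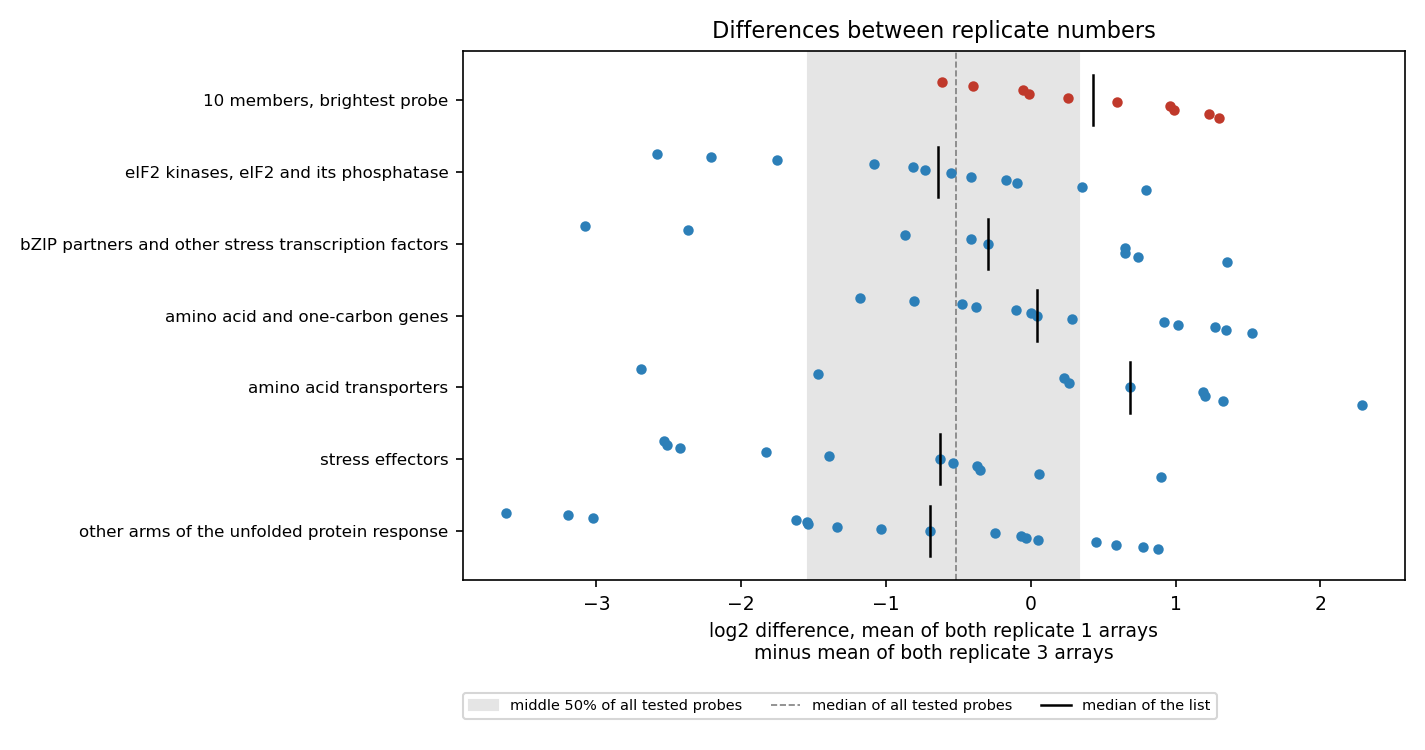
Mean of both replicate 1 arrays minus mean of both replicate 3 arrays (horizontal axis, log2) for the brightest probe of each of the 10 genes in red and of the tested genes of the 6 pathway lists in blue, with black bars at the list medians, a dashed line at the median of all tested probes (-0.52) and a grey band over their middle 50%. The 10 genes run from -0.62 to 1.30 with a median of 0.43, and the list medians run from -0.70 for the other unfolded protein response arms to 0.68 for the transporters. The dashed line and the band count every tested probe of a gene and the points only the brightest, so they are not like for like. The band shows single probes and is no yardstick for a median.

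The pattern of ATF4 over the 6 arrays was compared with that of other genes detected on all of them, among which were 4 of the 9 other members. Each gene was centred on its own mean, and the root mean square difference from ATF4 over the 6 arrays was taken for 5653 genes. The 5 lowest values were 0.105 (log2) for MRPL24, 0.106 for POP5, 0.113 for IGFBP2, 0.114 for RILPL2 and 0.115 for NDUFB8. Of those 4 members, CHAC1 stood at 0.366 (rank 659), ASNS at 0.718 (rank 3121), PHGDH at 0.833 (rank 3850) and TRIB3 at 0.843 (rank 3909). The ranks describe likeness over 3 pairs of arrays with shared slides, and no test was made of them.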

How the data were processed

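Per the file headers, the deposited scanner values are spot intensities from Agilent Feature Extraction 10.7.3.1, background subtracted and detrended within each array, with a surrogate for spots not above background. The authors' deposited value table holds log2 values from 4.04 to 18.8. Its ranks equalled those of median minus background intensity on each array (Spearman's rho 1), its making is not given in the sources used here, and it served as an alternative. The submitters' processing notes name limma.

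Control and outlier spots were left out, spots of a probe were averaged, and 13 probes without a usable spot were dropped. From each array's log2 processed intensities its 75th percentile was subtracted, taken over the 6582 probes well above background on all 6 arrays, because under 50% of spots were detected on 4 arrays. A probe counted as detected where over 50% of its usable spots were well above background, and 17765 probes detected on all 3 arrays of a group entered the fit. It used lmFit and eBayes of limma 3.58.1 (R 4.3.3), two-sided and without a block, with a Benjamini-Hochberg threshold of 0.05. Counts over genes used the brightest probe. The fit was also run on simulated data whose arrays were drawn independently, without the shared slides of the real ones. That run therefore cannot show how the fit behaves on paired arrays.

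Same-numbered arrays share a slide and their deviations correlated at over 0.1 in each pair, so the numbers pair the arrays. Named are the 10 genes with every probe, the highest and lowest gene of each pathway list, and the 5 genes most like ATF4. The members and lists were chosen with earlier results of these data known. Alternatives were 3 other scalings, quantile normalization, normexp (offset 50), 2 other filters, the block, the block on replicates 1 and 3, the authors' table, averaging a gene's probes and leaving out each array. Removal of the base composition trend and the comparison of probes by position were chosen after seeing the data. Probe coordinates are those of the array files (hg19), and whether a probe lies in an exon or a UTR was not analysed here. Sequences are printed for 7 of the 15 probes, and 1 other that was to be shown is not reported here.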

Additional observations from a re-analysis of the deposited data

How the results depend on the processing

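No probe of the 10 genes was called under any of the 19 settings tried (0 in each, limma). Of 245 alternative values 47 have the same difference as another setting by construction (the block and the filters). Of the other 198, 163 kept their direction and 35 turned. The 3 other scalings each move all probes by a common amount, so their values are not independent of the main ones. The lowest adjusted p was 0.180. With normexp background correction ATF3 A_23_P34915 stood at 0.20, A_24_P33895 at 0.50, A_33_P3214096 at 0.59 and A_33_P3214105 at 0.27, DDIT3 at 0.46 and PSAT1 A_21_P0010626 at 0.094. ATF3 A_33_P3214096 was 0.058 with the 75th percentile of all spots and 0.031 with median scaling, each of which raises every probe by the same amount. SESN2 was -0.80 after quantile normalization. Without scaling, which lowers every probe by the same 0.996, ATF4 was -0.85, TRIB3 -0.65, CHAC1 -0.74, SESN2 -0.73 and PHGDH -0.84. With the base composition trend removed, with or without the replicate block, ATF4 was -0.24, CHAC1 -0.13, PHGDH -0.28 and SESN2 -0.13. The block on replicates 1 and 3 gave 0.078 for DDIT3, -0.038 for SESN2, 0.030 for ATF3 A_23_P34915 and -0.059 for CHAC1. Apart from the common shifts of the scalings, the cause of these turns was not tested.

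Leaving out each array in turn gave ranges of -0.77 to 0.24 for ATF3 A_23_P34915, -0.42 to 0.41 for A_33_P3214096, -0.65 to 0.0041 for A_33_P3214105, -0.11 to 0.33 for ATF4, -0.44 to 0.19 for DDIT3, -0.33 to 0.64 for PHGDH, -0.12 to 0.79 for SESN2 and -0.15 to 0.90 for TRIB3. The other probes kept their sign, with ranges of -0.74 to -0.03 for ASNS, -1.65 to -0.18 for MTHFD2, -1.27 to -0.19 for PSAT1 A_23_P259692, -1.33 to -0.35 for PSAT1 A_21_P0010626, -0.79 to -0.16 for ATF3 A_24_P33895 and 0.03 to 0.68 for CHAC1. The values nearest 0 of ASNS, MTHFD2 and PSAT1 A_23_P259692 were those without NUDT16 replicate 2, and those of the other 3 were without NUDT16 replicate 1. The count of the 10 genes above the median of all probes was 5, and became 1 with the base composition trend removed, with or without the block, 3 (of 5 genes) with the filter on all 6 arrays, 0 without a filter, 2 with normexp and 8 with the block on replicates 1 and 3. With the 2 filters the differences of the members stayed the same, and only the median of all probes moved. That median was -0.11 in the main fit, 0.16 with the filter on all 6 arrays and 0.73 without a filter. It was 0.47 with normexp and -0.22 with the block on replicates 1 and 3. Leaving out an array moved the count between 1 (without NUDT16 replicate 1) and 7 (without NUDT16 replicate 2). Pathway genes called numbered 2 with the block on replicates 1 and 3. Over the whole array 1 probe was called, and 613 with that block, where p-values follow the size of the difference and not the spread of the single probe. The count was 0 with the filter on all 6 arrays, without a filter, without scaling, with normexp, with the authors' table and with the base composition trend removed and the block, where 2, 160, 1, 1, 10 and 1737 probes had an unadjusted p under 0.05. Leaving out an array gave 0 (without mock replicate 2, with 1 at an unadjusted p under 0.05) to 1. The replicate block changed no other call. Precision is limited by 3 arrays a group and by the dim NUDT16 replicate 2, on which 9 of the 14 tested probes were at background.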
